A study of Mus musculus with 18 samples.

Results

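The 38 Hox genes examined here were taken from a fixed list of symbols and sorted by cluster and by paralog number, without use of any measured value. They were 38 of the 47728 genes counted in the bulk libraries. The Hoxa members (10 genes) lay on chromosome 6 between 52162417 and 52260880, the Hoxb members (10 genes) on chromosome 11 between 96194316 and 96368256, the Hoxc members (9 genes) on chromosome 15 between 102921103 and 103036852, and the Hoxd members (9 genes) on chromosome 2 between 74668310 and 74765142 (GRCm38, GENCODE M21). By paralog number, 7 were anterior (paralogs 1 to 3), 15 central (4 to 8) and 16 posterior (9 to 13).

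Hox genes encode homeodomain transcription factors that give cells their position along the head-to-tail axis and along the limbs. Genes at the 3′ end of a cluster, with low paralog numbers, are switched on early and reach furthest towards the head, and genes at the 5′ end are switched on later and nearer the tail and the limb tip. Their pattern is set in the embryo by retinoic acid, Wnt and Fgf signals and by the Cdx factors, and muscle stem cells keep part of it after birth.

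The libraries described mouse myogenic progenitors of different origin. The iPax3 and iPax7 groups (3 bulk libraries each) were derived from embryonic stem cells, a pluripotent stem cell (PSC), through embryoid bodies. Vcam1+Flk1- cells were sorted from these and grown with Dox and bFGF (doxycycline, the usual inducer of such Pax3 or Pax7 transgenes, and basic fibroblast growth factor) over 3 passages, so that both groups carry the same sort, agents and culture time; the labels give no strain or clone. The tissue groups (3 bulk libraries each) were embryonic myoblasts at E10.5 (Emb) and fetal myoblasts at E14.5 (Fet), both of a strain given as My5Cre Rosa26YFP, a Cre driver with a YFP reporter at Rosa26, and neonatal satellite cells of Pax7-ZsGreen mice at postnatal day 3 (Neo). Neo came from hindlimb muscles, whereas the labels of Emb and Fet name the whole embryo and fetus and no body region, so stage and body region cannot be told apart between Neo and the other tissue groups, nor culture and origin between the PSC-derived and the tissue groups. Single cells were profiled from 1 iPax3 culture and from adult satellite cells (Sat) of the tibialis anterior, a hindlimb muscle, of Pax7-ZsGreen mice of 3 months. The labels do not say whether replicates came from separate cultures or animals, so p-values measure the spread between these libraries, which may be technical.

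Total counts ran from 516504 in Fet replicate 1 to 56275318 in iPax3 replicate 1. Pax3 was at 294 to 354 CPM, the usual depth-scaled count, here on the TMM-scaled library total, in iPax3 libraries. Pax7 was at 111 and 349 CPM in iPax7 replicates 2 and 3, but at 0.982 CPM in the library labelled iPax7 replicate 1, which also held 3349 CPM of 6 pluripotency genes, against 3.36 and 3.54 CPM in the other iPax7 libraries. The iPax7 counts of called members against each stage, their medians and the iPax7 fold changes of single members are given with and without it. A library with 0 or 1 count of a member while another of its group had 100 or more occurred for 9 members in Emb, for 8 in Fet, each time in the shallow replicate 1, and for 1 (Hoxc13) in iPax7. In Emb, 15.6% of all genes with a mean over 5 CPM showed such gaps, so a 0 in a single Emb library is read as a gap. That share was 4.7% in Fet and 4.7% in Neo, where 0 members met the rule. Hoxa3 and Hoxb7 were at 0 in Neo replicate 1, with 54 and 56 counts in replicate 2, under the limit of 100. A 0 in a single Neo library may thus also be a gap.

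Hox transcripts were scarce in PSC-derived cells and abundant in tissue progenitors. Summed over the 38 members, iPax3 libraries held 17.4, 64.5 and 4.61 CPM and iPax7 libraries 25.3, 17.7 and 39.2 CPM, against 1214, 1390 and 1182 CPM in Emb, 413, 357 and 445 CPM in Fet, and 408, 378 and 409 CPM in Neo. Every PSC-derived library lay below every tissue library, and the iPax3 and iPax7 libraries overlapped. Means were 28.8 ± 31.5 CPM in iPax3, 27.4 ± 10.9 CPM in iPax7, 1262 ± 112 CPM in Emb, 405 ± 44.5 CPM in Fet and 398 ± 17.8 CPM in Neo (SD, n = 3 each). In bulk libraries, fewer Hox-expressing cells and less Hox RNA per cell cannot be told apart.

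Counting a member as detected at 1 CPM and 3 counts or more, 3, 3 and 2 members were detected in the iPax3 libraries and 7, 4 and 5 in the iPax7 libraries, against 36, 30 and 28 in Emb, 20, 37 and 36 in Fet, and 19, 23 and 30 in Neo. The lowest Fet value belonged to replicate 1, where 1 count equalled 1.73 CPM. Only Hoxb4 and Hoxb9 were detected in all 3 iPax3 libraries, and only Hoxb9 and Hoxd8 in all 3 iPax7 libraries. In the tissue groups 25 members passed in all 3 Emb libraries, 19 in all Fet libraries and 14 in all Neo libraries.

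**Figure D1:**
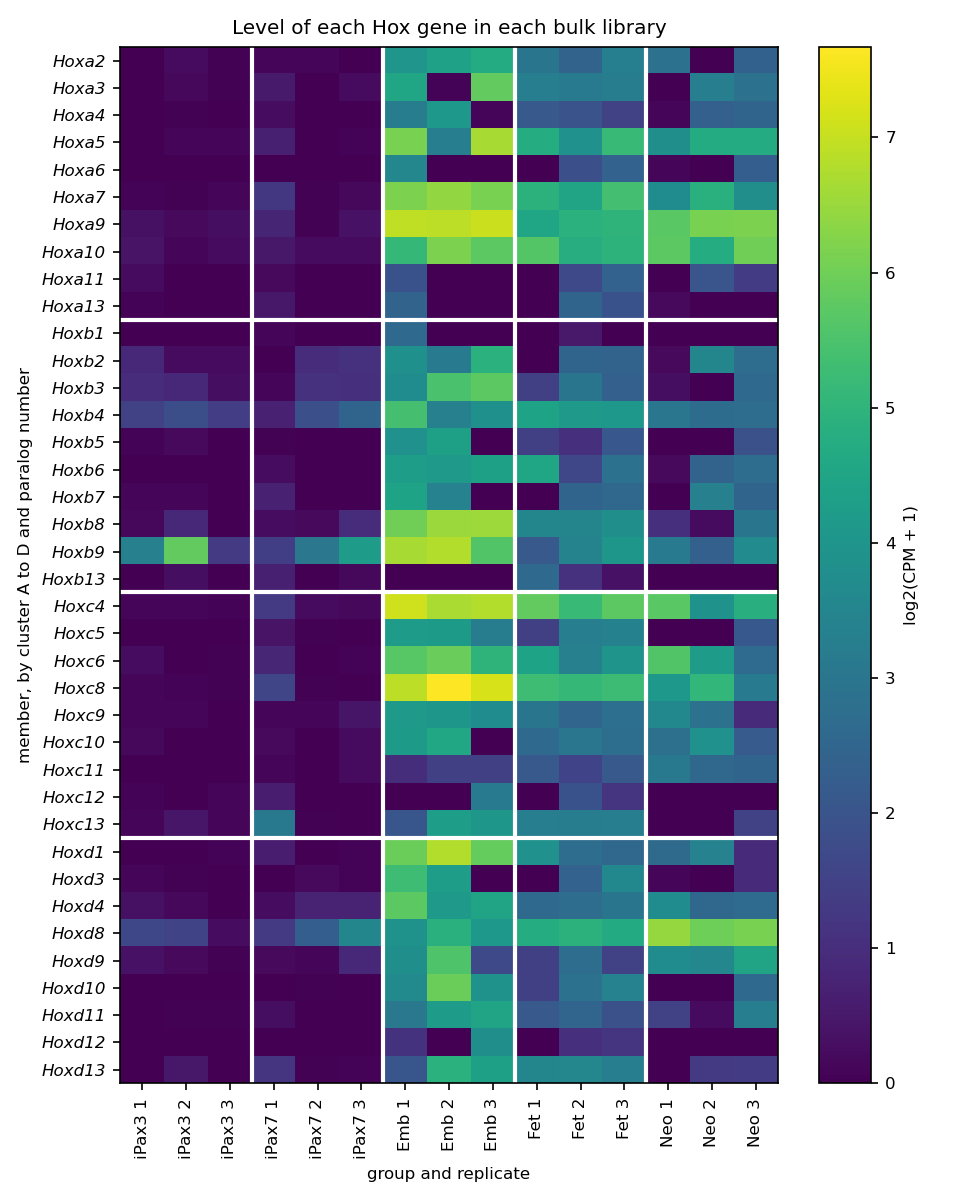
Level of each of the 38 Hox genes (down the page, by cluster and paralog number) in each of the 15 bulk libraries (across), as log2(CPM + 1) in colour. The 6 PSC-derived libraries are near 0 for nearly all members, with Hoxb9, Hoxb4, Hoxd8 and, in the library labelled iPax7 replicate 1, Hoxc13 as visible exceptions, and gaps of single libraries appear in Emb and in Fet replicate 1.

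The clusters were not silent to the same degree. Clusters A and C were nearly empty in iPax3, with summed levels of 0.724 ± 0.181 CPM for A and 0.534 ± 0.220 CPM for C, against 370 ± 58.8 and 379 ± 56.5 CPM in Emb, 142 ± 25.7 and 130 ± 16.3 CPM in Fet, and 164 ± 28.9 and 94.5 ± 42.3 CPM in Neo. No member of clusters A and C was detected in any iPax3 library. In iPax7, cluster A summed to 4.37, 0.304 and 0.796 CPM and cluster C to 13.1, 0.371 and 0.853 CPM, so that in both clusters the library labelled replicate 1 was highest.

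Cluster B carried most of the Hox signal of iPax3, at 12.9, 60.5 and 3.45 CPM, against 289, 306 and 253 CPM in Emb, 65.6, 57.2 and 68.4 CPM in Fet, and 16.3, 33.9 and 48.4 CPM in Neo. Only iPax3 replicate 2 reached the range of Fet and Neo, and all iPax3 libraries were below Emb. Without Hoxb9 the cluster summed to 3.78, 4.84 and 2.002 CPM in iPax3, against 188 to 206 CPM in Emb, 47.5 to 62.2 CPM in Fet and 8.55 to 36.3 CPM in Neo, with no overlap. In iPax7, cluster B summed to 4.08, 12.1 and 25.4 CPM, lowest in the library labelled replicate 1. Cluster D summed to 2.78, 2.72 and 0.290 CPM in iPax3 and to 3.75, 4.89 and 12.2 CPM in iPax7, against 202, 325 and 165 CPM in Emb, 62.2, 73.7 and 71.6 CPM in Fet, and 118, 89.3 and 113 CPM in Neo. Clusters A and C together supplied 10.1 ± 8.47% of Hox counts in iPax3 and 25.7 ± 37.5% in iPax7, where the library labelled replicate 1 stood at 69.0%, against 59.6 ± 5.05% in Emb, 67.0 ± 3.14% in Fet and 65.1 ± 3.85% in Neo (SD, n = 3 each). It was between 1.96 and 18.9% in the 3 iPax3 libraries and at 3.82 and 4.21% in the other 2 iPax7 libraries, against 54.6 to 69.0% over the 9 tissue libraries.

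**Figure D2:**
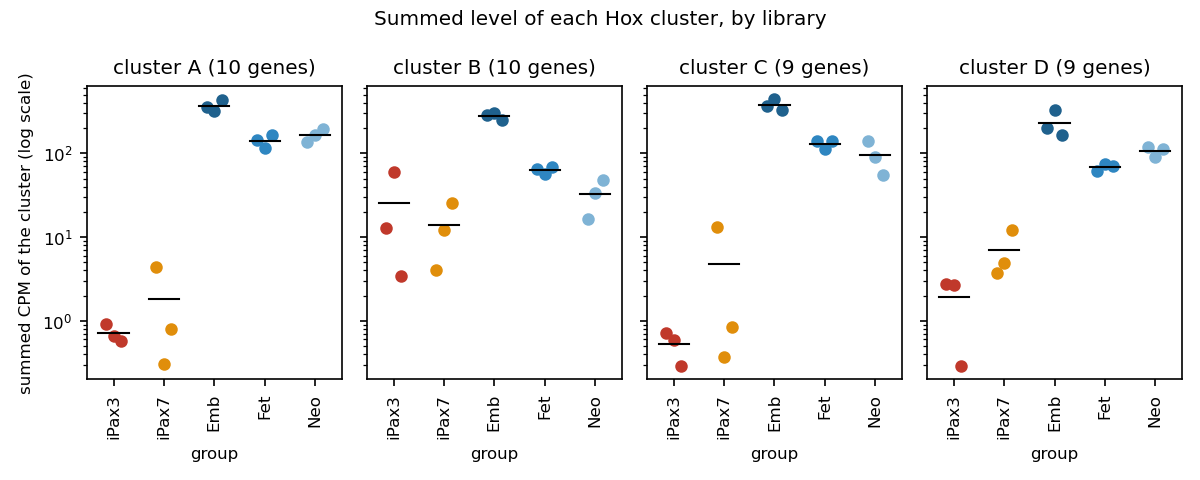
Summed level of the members of each Hox cluster in every bulk library (CPM, log axis), with the groups side by side and a line at the group mean. Clusters A and C of iPax3 lie under 1 CPM in all libraries, whereas cluster B of iPax3 runs from 3.45 to 60.5 CPM and reaches the range of Fet and Neo in replicate 2.

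Split along the clusters, anterior members summed to 1.21 CPM in iPax3 and 2.01 CPM in iPax7 on average, against 194, 35.7 and 21.3 CPM in Emb, Fet and Neo. Central members summed to 4.33 and 11.5 CPM in iPax3 and iPax7, against 672, 243 and 215 CPM in Emb, Fet and Neo. Posterior members summed to 23.3 and 13.8 CPM in iPax3 and iPax7, against 396, 127 and 162 CPM in Emb, Fet and Neo. Posterior genes made up 64.8 ± 22.3% of Hox counts in iPax3 (61.2, 88.7 and 44.6% by library) and 49.9 ± 5.81% in iPax7, against 31.1 ± 4.90% in Emb, 31.5 ± 3.33% in Fet and 40.5 ± 6.31% in Neo (SD, n = 3 each). In iPax3 this share rested mainly on Hoxb9, which held 52.7, 86.3 and 31.4% of Hox counts by library. Without Hoxb9 the whole family summed to 6.73 ± 3.102 CPM in iPax3 and 18.5 ± 7.09 CPM in iPax7, against 1176 ± 90.7 CPM in Emb, 395 ± 42.7 CPM in Fet and 390 ± 14.54 CPM in Neo.

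Promoter sequence was at hand for some of the members these contrasts turn on. RefSeq start sites (GRCm38.p6, 250 bases before to 50 after the start) gave 24 windows for 22 of the 38 members, among 32851 windows in all. The 7 below are shown because Hoxa7, Hoxa9 and Hoxc4 were nearly absent from PSC-derived cells, Hoxb4 and Hoxd8 stayed measurable there, Hoxd4 was found in single iPax3 cells, and Hoxb8 was lower in neonatal than in embryonic cells. Each reads 5′ to 3′ on the gene's strand. Capitals mark matches on either strand to TTTATG, a form of the Cdx site, to AGGTCA, the retinoic acid receptor half-site, and to TGATNNAT, a form of the joint Hox and Pbx site; no matches of different motifs overlap in the windows shown.
Hoxa7 (chr6:52218524-52218823, minus strand): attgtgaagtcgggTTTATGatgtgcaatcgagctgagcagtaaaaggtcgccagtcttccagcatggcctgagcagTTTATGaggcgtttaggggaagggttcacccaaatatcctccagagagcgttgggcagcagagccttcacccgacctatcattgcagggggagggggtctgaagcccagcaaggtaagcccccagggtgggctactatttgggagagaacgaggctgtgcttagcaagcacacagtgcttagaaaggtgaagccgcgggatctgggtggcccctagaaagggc
Hoxa9 (chr6:52227321-52227620, minus strand): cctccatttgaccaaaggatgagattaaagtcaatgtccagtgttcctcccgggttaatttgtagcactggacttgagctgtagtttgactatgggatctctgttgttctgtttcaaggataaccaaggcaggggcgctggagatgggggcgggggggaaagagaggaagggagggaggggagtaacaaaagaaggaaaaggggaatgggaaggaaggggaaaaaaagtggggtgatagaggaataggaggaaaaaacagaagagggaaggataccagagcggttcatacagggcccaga
Hoxb4 (chr11:96318017-96318316, plus strand): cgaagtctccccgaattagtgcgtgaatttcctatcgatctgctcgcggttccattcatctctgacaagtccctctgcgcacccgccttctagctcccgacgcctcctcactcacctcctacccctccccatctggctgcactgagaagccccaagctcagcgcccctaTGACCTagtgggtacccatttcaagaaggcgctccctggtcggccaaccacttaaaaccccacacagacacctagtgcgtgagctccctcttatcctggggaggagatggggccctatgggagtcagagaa
Hoxb8 (chr11:96281655-96281954, plus strand): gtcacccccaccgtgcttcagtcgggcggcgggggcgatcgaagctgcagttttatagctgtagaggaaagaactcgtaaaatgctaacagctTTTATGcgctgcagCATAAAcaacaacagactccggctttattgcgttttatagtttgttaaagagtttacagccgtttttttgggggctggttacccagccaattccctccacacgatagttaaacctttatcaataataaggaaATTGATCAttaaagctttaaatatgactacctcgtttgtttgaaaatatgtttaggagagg
Hoxc4 (chr15:103034145-103034444, plus strand): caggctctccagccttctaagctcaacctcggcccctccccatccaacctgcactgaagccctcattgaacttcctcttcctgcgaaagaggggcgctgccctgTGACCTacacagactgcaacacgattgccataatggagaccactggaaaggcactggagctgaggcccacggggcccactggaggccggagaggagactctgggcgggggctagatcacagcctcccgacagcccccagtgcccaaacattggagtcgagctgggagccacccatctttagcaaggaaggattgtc
Hoxd4 (chr2:74721728-74722027, plus strand): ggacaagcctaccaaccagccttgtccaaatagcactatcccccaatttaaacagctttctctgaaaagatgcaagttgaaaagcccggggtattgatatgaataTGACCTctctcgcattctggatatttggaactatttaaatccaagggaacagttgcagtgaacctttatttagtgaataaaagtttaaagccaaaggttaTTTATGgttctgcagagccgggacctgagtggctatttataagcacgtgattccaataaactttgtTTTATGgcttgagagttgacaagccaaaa
Hoxd8 (chr2:74704365-74704664, plus strand): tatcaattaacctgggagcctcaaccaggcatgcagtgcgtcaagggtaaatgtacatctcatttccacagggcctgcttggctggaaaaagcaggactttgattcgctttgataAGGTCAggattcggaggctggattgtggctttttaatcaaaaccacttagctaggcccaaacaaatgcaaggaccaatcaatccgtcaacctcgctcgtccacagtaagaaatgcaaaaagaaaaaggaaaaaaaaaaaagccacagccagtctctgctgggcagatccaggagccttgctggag
TTTATG occurred in 5 of the 24 Hox windows (20.8%), those of Hoxa7, Hoxb8, Hoxd3, Hoxd4 and a Hoxd11 start, against 11.9% of all windows. AGGTCA occurred in 7 (29.2%), those of Hoxa5, Hoxb4, Hoxc4, Hoxd3, Hoxd4, Hoxd8 and Hoxd10, against 16.3% of all windows. TGATNNAT occurred in 4 (16.7%), those of Hoxa2, Hoxb1, Hoxb8 and a Hoxd11 start, against 8.80% of all windows. The Hoxa9 window held none of the 3 motifs. A match is a description of the letters and not a bound site. AGGTCA was held by Hoxb4 and Hoxd8, which stayed measurable in PSC-derived cells, and by Hoxc4, which was nearly absent. Hoxb9 had no window, and a link between motifs and levels was not tested.

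Each PSC-derived group was then tested against each tissue stage. The test was edgeR's quasi-likelihood test over 17571 genes with Benjamini-Hochberg adjustment, called at an adjusted p under 0.05. All adjusted p-values of members below come from it unless another tool is named. Of the 38 members 36 passed the low-count filter; Hoxb1 and Hoxb13, with 82 and 72 counts over all libraries, did not. The members that passed had to be high in at least some libraries, so their counts are read only against the share of all genes called. The 3 comparisons of iPax3 share the iPax3 libraries, the 3 of iPax7 share the iPax7 libraries, and comparisons with the same stage share that stage's libraries.

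In iPax3 cells, 27 of 36 members were lower than in Emb, where 7.64% of all genes were lower, and 0 were higher (9.34% of all genes). Against Fet, 18 were lower (5.68% of all genes) and 0 higher (2.85%), and against Neo 21 were lower (11.3%) and 0 higher (11.3%). Median log2 fold changes of the 36 were -8.07, -6.97 and -6.45 against Emb, Fet and Neo, or -7.89, -6.79 and -5.73 with genes at 0 in a group set to the bound that 3 counts over the group give, whereas the medians of all tested genes were 0.24, 0.03 and 0.20. Without iPax3 replicate 1 or without iPax3 replicate 3 the count against Fet was 11. The iPax3 libraries did not overlap those of Emb, Fet and Neo in 25, 27 and 18 members. Over all tested genes this held for 44.9, 51.4 and 52.9%, so the 18 of 36 against Neo were near that share.

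In iPax7 cells, 23 members were lower than in Emb (5.54% of all genes) and 0 higher (8.51%). Against Fet, 9 were lower (2.75%) and 0 higher (0.950%), and against Neo 17 were lower (8.37%) and 0 higher (9.83%). Median log2 fold changes were -6.93, -5.34 and -4.75 against Emb, Fet and Neo, beside 0.36, 0.15 and 0.30 over all genes. Without the library labelled iPax7 replicate 1 the counts against Emb, Fet and Neo were 17, 10 and 11, and the medians -8.83, -7.62 and -5.96 over the 37 members then tested. Without iPax7 replicate 2 or without iPax7 replicate 3 the count against Emb was 12, and against Neo it was 8 without replicate 2 and 10 without replicate 3. The iPax7 libraries did not overlap those of Emb, Fet and Neo in 24, 27 and 15 members. Over all tested genes this held for 33.0, 34.3 and 41.1%, so the 15 of 36 against Neo were near that share.

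By cluster, the members lower in iPax3 than in Emb were 7 of 10 in A, 4 of 8 in B, 7 of 9 in C and 9 of 9 in D. Against Neo they were 7 in A, 1 in B, 7 in C and 6 in D, with median log2 fold changes of -7.48, -3.28, -7.49 and -5.80. In iPax7 the counts against Neo were 5 in A, 1 in B, 6 in C and 5 in D. By paralog position, 5 of 6 anterior, 12 of 15 central and 10 of 15 posterior members were lower in iPax3 than in Emb, and 3, 10 and 8 were lower than in Neo. In iPax7, 5, 10 and 8 were lower than in Emb and 2, 8 and 7 were lower than in Neo. These iPax7 counts by cluster and position include the library labelled replicate 1. Without it, the 11 members lower in iPax7 than in Neo were Hoxa5, Hoxa7, Hoxa9, Hoxa10, Hoxb6, Hoxc4, Hoxc6, Hoxc8, Hoxd1, Hoxd8 and Hoxd11. A difference between clusters or positions was not tested. In the 6 comparisons 0 members were higher at an unadjusted p under 0.05. DESeq2 called 1 higher, Hoxc12 against Neo in both PSC-derived groups; Hoxc12 was at 0 in all Neo libraries, at 0.0525, 0 and 0.0790 CPM in iPax3 and at 0.509, 0 and 0 CPM in iPax7.

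**Figure D3:**
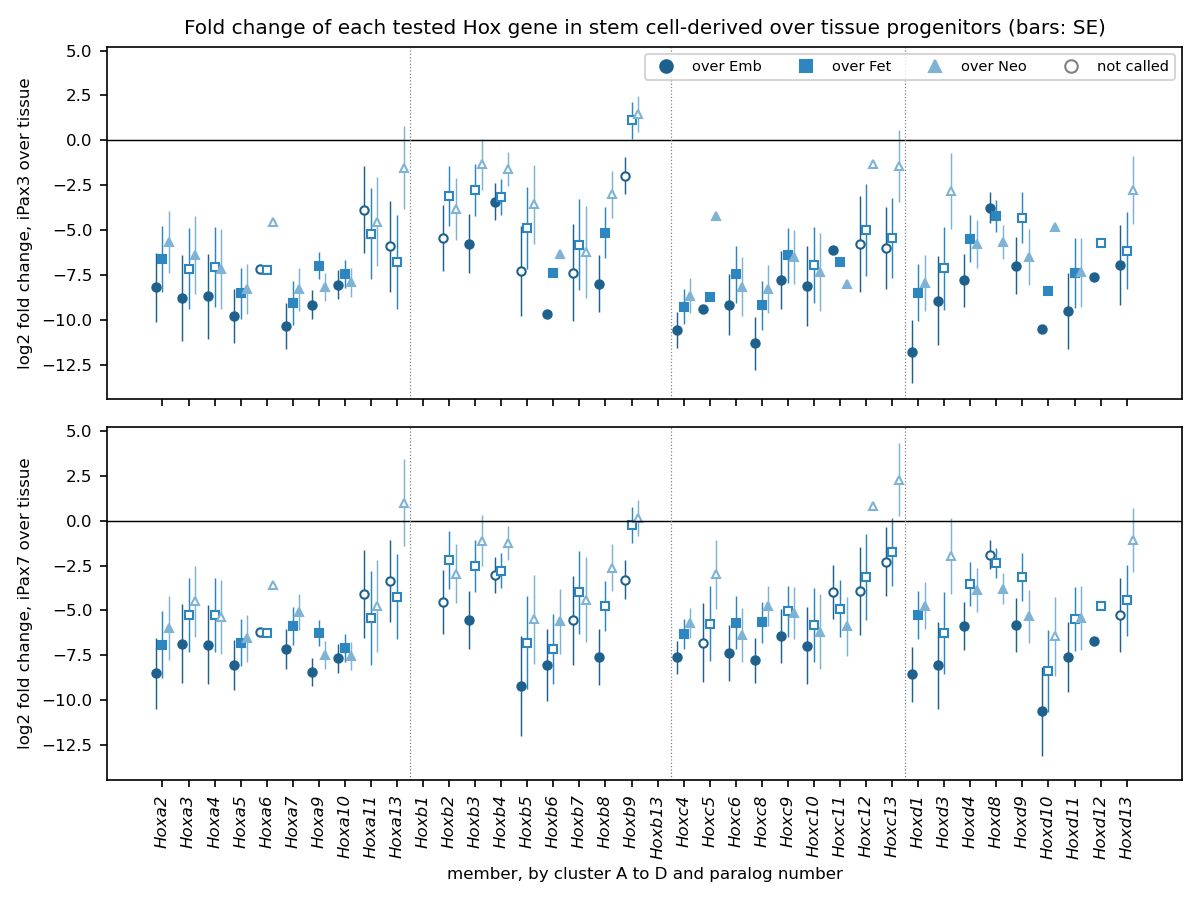
Log2 fold change of each tested Hox gene in iPax3 (upper panels) and iPax7 (lower panels) over Emb, Fet and Neo, ordered by cluster and paralog number. Bars are standard errors, filled points passed an adjusted p under 0.05 (edgeR), and 24 points without bars stand at the bound that 3 counts allow because a group was at 0. Filled points all lie below 0. Against Neo, cluster B has the median nearest to 0 in both groups, although single points of other clusters lie nearer than some of its members.

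The 9 members lower in each of the 6 comparisons of a PSC-derived group with a tissue stage were Hoxa2, Hoxa5, Hoxa7, Hoxa9, Hoxa10, Hoxc4, Hoxc6, Hoxc8 and Hoxd1. The calls of Hoxa9, Hoxa10 and Hoxc4 held in all 82 refits with another setting or with a library left out. Those of Hoxa5 and Hoxa7 were lost in 1 refit each, of Hoxc8 in 3, of Hoxc6 in 9, of Hoxd1 in 13, and of Hoxa2 in 29 of its 74.

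Hoxa9, a posterior gene active in the trunk and proximal limb, was at 0.280, 0.143 and 0.211 CPM in iPax3 and 0.728, 0.0338 and 0.284 CPM in iPax7, against 122, 118 and 131 CPM in Emb, 22.5, 28.9 and 30.5 CPM in Fet, and 51.2, 69.4 and 70.9 CPM in Neo. All 6 PSC-derived libraries were under 1 CPM and all 9 tissue libraries above 22 CPM. Its log2 fold change in iPax3 was -9.15 ± 0.81 against Emb (SE; adjusted p = 3.24e-06), -6.98 ± 0.74 against Fet (1.59e-05) and -8.19 ± 0.78 against Neo (2.93e-06). In iPax7 it was -8.44 ± 0.79 against Emb (adjusted p = 1.03e-05), -6.28 ± 0.73 against Fet (7.24e-05) and -7.49 ± 0.76 against Neo (8.39e-06). Without the library labelled iPax7 replicate 1 these were -9.70, -7.54 and -8.74.

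Hoxa10, its 5′ neighbour, known for its part in the lumbar spine and the thigh, was at 0.315, 0.0953 and 0.158 CPM in iPax3 and 0.400, 0.169 and 0.171 CPM in iPax7. It was at 33.4, 69.9 and 52.2 CPM in Emb, 48.4, 26.4 and 29.8 CPM in Fet, and 52.4, 25.7 and 63.7 CPM in Neo. The PSC-derived and tissue ranges lay far apart, while the 3 stages overlapped each other. Log2 fold changes ran from -8.04 ± 0.81 (iPax3 against Emb, adjusted p = 1.26e-05) to -7.07 ± 0.79 (iPax7 against Fet, adjusted p = 5.43e-05; -7.60 without the library labelled iPax7 replicate 1).

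Hoxa7, a central gene of the thoracic region, was at 0.0525, 0.0238 and 0.0790 CPM in iPax3 and 1.38, 0.0338 and 0.114 CPM in iPax7, against 70.9, 84.5 and 69.1 CPM in Emb, 29.4, 21.4 and 40.2 CPM in Fet, and 12.2, 28.3 and 12.9 CPM in Neo. The library labelled iPax7 replicate 1 was the only PSC-derived one above 1 CPM. Log2 fold changes were -10.36 ± 1.28 (iPax3 against Emb, adjusted p = 6.54e-05) and -5.09 ± 1.01 (iPax7 against Neo, adjusted p = 0.00309) at the ends of the range, the second being -7.90 without the library labelled iPax7 replicate 1. Hoxa7 shares 20.4% of its exon length with other genes, and since the strand setting of the counting is not given, such reads cannot be assigned with certainty.

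Hoxa5, which patterns the cervical spine and shoulder, was at 0.0175, 0.0953 and 0.0790 CPM in iPax3 and 0.582, 0 and 0.0569 CPM in iPax7, against 68.7, 8.63 and 101 CPM in Emb, 25.9, 13.6 and 35.2 CPM in Fet, and 13, 25.1 and 25.2 CPM in Neo. Emb replicate 2 lay far below the other Emb libraries but above every PSC-derived library. The iPax7 log2 fold change against Neo was -6.55 ± 1.31 (adjusted p = 0.00309), and -9.50 without the library labelled iPax7 replicate 1.

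In cluster C, Hoxc4, the most 3′ gene of its cluster, was at 0.0875, 0.0715 and 0.0527 CPM in iPax3 and 1.46, 0.169 and 0.114 CPM in iPax7, against 139, 103 and 109 CPM in Emb, 55.3, 35.6 and 52.1 CPM in Fet, and 51.4, 14.497 and 27.0 CPM in Neo. Its log2 fold change was -10.56 ± 1.03 in iPax3 against Emb (adjusted p = 8.65e-06) and -9.26 ± 0.99 against Fet (1.59e-05). Hoxc8, a gene of the lower thoracic region, was at 0.0875, 0.0476 and 0.0263 CPM in iPax3 and 2.04, 0.0338 and 0 CPM in iPax7, against 120, 203 and 145 CPM in Emb, 38, 33.1 and 37.5 CPM in Fet, and 16.1, 33.1 and 8.11 CPM in Neo. For both genes the iPax7 signal sat mainly in the library labelled replicate 1. Hoxc6, a gene of the upper thorax and forelimb level, ranged from 0 to 0.192 CPM in iPax3 and from 0 to 0.764 CPM in iPax7, against 30.7 to 59.8 CPM in Emb, 9.19 to 20.7 CPM in Fet and 5.41 to 46.8 CPM in Neo.

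Among anterior members, Hoxd1, the most 3′ gene of cluster D, was at 0, 0 and 0.0527 CPM in iPax3 and 0.509, 0 and 0.0569 CPM in iPax7, against 60.9, 109 and 56.5 CPM in Emb, 13.8, 5.75 and 4.91 CPM in Fet, and 5.23, 9.61 and 0.901 CPM in Neo. Neo replicate 3 was the only tissue library near the PSC-derived range. Hoxa2, which patterns the hindbrain and the second branchial arch, was at 0, 0.167 and 0.0263 CPM in iPax3 and 0.0728, 0.0675 and 0 CPM in iPax7, against 14.9, 19.9 and 25.2 CPM in Emb, 6.91, 4.38 and 8.90 CPM in Fet, and 6.22, 0 and 4.20 CPM in Neo. Hoxb1, a hindbrain gene, was detected in only 1 library, Emb replicate 1, at 5.09 CPM.

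**Figure D4:**
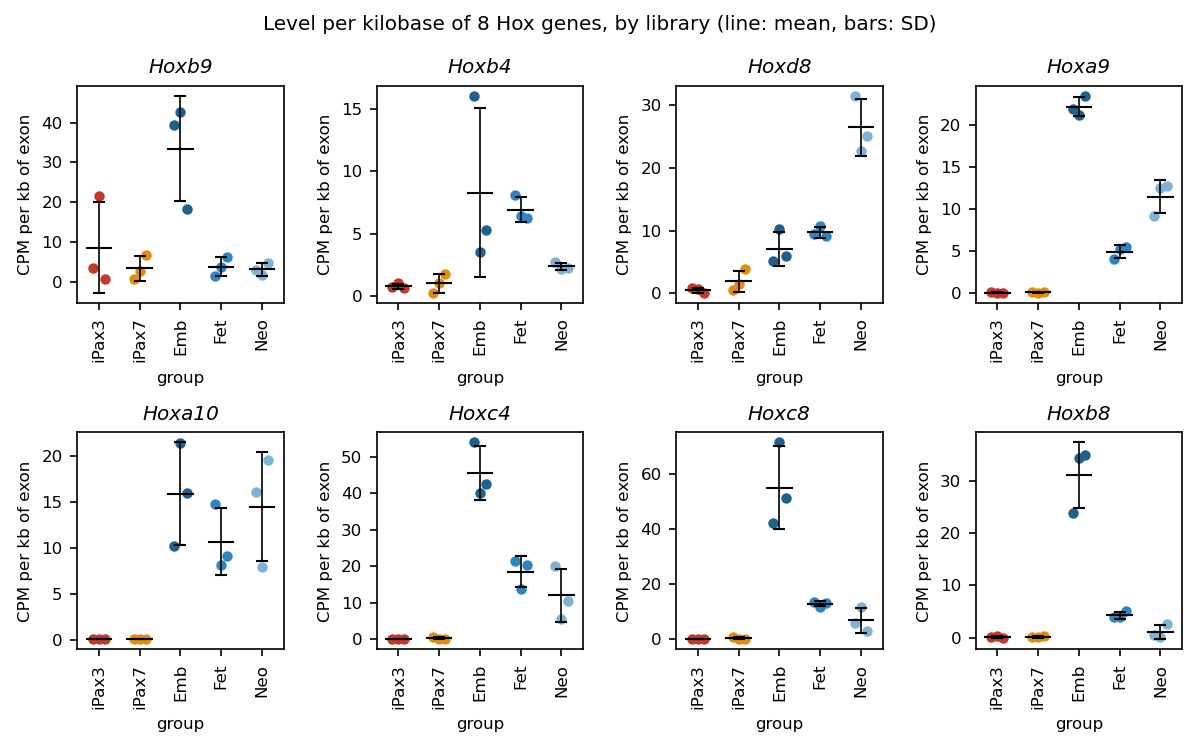
Level per kilobase of exon (CPM per kb) of 8 Hox genes in each bulk library, with the group mean and SD (n = 3). Hoxa9, Hoxa10, Hoxc4 and Hoxc8 lie near 0 in all PSC-derived libraries, whereas Hoxb9, Hoxb4 and Hoxd8 are above 0 there. The mean is highest in Emb for all but Hoxd8, which is highest in Neo, and Emb overlaps Fet for Hoxa10 and Hoxb4.

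Hoxb9, a thoracic gene at the 5′ side of cluster B, was the member with the highest level in both PSC-derived groups. It was at 9.15, 55.7 and 1.45 CPM in iPax3 (523, 2338 and 55 counts) and 1.67, 7.26 and 17.6 CPM in iPax7, against 101, 110 and 47.0 CPM in Emb, 3.45, 9.73 and 15.8 CPM in Fet, and 7.77, 4.07 and 12.01 CPM in Neo. The range of the iPax3 libraries covered those of Fet and Neo. None of the 6 comparisons was called: the log2 fold change in iPax3 was -1.96 ± 1.02 against Emb (adjusted p = 0.198), 1.11 ± 1.01 against Fet (0.603) and 1.48 ± 1.02 against Neo (0.312). In iPax7 it was -3.29 ± 1.08 against Emb (adjusted p = 0.0514), -0.22 ± 1.0 against Fet (0.955) and 0.16 ± 1.0 against Neo (0.934). Without the library labelled iPax7 replicate 1 these were -2.78, 0.28 and 0.67. The iPax3 values hang on replicate 2: without it they were -3.99 against Emb (adjusted p = 0.0386, range 0.0386 to 0.428 over the 13 alternatives), -0.91 against Fet and -0.54 against Neo, a change of sign in the last 2. That library also had 43.0 CPM of Lin28a, an RNA-binding protein of early embryonic cells, against 0.245 and 0.263 CPM in the other iPax3 libraries, and the part of this in the result was not tested.

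Hoxb4, a gene of the cervical region known for expanding blood stem cells, was at 1.77, 2.57 and 1.63 CPM in iPax3 and 0.619, 2.63 and 4.49 CPM in iPax7, against 41.2, 9.14 and 13.5 CPM in Emb, 20.7, 16.6 and 16.02 CPM in Fet, and 6.99, 5.54 and 5.71 CPM in Neo. PSC-derived libraries were below all tissue libraries without overlap. Only iPax3 against Emb was called, at -3.42 ± 1.01 (adjusted p = 0.0299), and that call was lost under 7 of 13 alternatives (adjusted p 2.84e-06 to 0.128). Against Fet the log2 fold change in iPax3 was -3.15 (adjusted p = 0.0628) and against Neo -1.61 (0.234).

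Hoxd8, a central gene of cluster D, was at 2.15, 2.00 and 0.184 CPM in iPax3 and 1.46, 3.92 and 10.46 CPM in iPax7, against 14.3, 28.1 and 16.2 CPM in Emb, 25.9, 29.5 and 24.9 CPM in Fet, and 86.3, 62.4 and 68.8 CPM in Neo. It was the member with the highest level per kilobase in Neo, and iPax7 replicate 3 came nearest to the tissue range. In iPax3 the log2 fold change was -3.75 ± 0.86 against Emb (adjusted p = 0.00773), -4.21 ± 0.88 against Fet (0.0067) and -5.64 ± 0.94 against Neo (0.000544). In iPax7 it was -3.78 ± 0.86 against Neo (adjusted p = 0.0073), while -1.89 ± 0.80 against Emb (0.122) and -2.35 ± 0.82 against Fet (0.129) were not called. Without the library labelled iPax7 replicate 1 these were -3.32 against Neo, -1.43 against Emb and -1.89 against Fet.

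Hoxb2 and Hoxb3, hindbrain and neck genes next to Hoxb4, were also above 0 in PSC-derived cells. Hoxb2 was at 0.805, 0.167 and 0.158 CPM in iPax3 and 0, 0.979 and 1.14 CPM in iPax7, against 13.3, 7.83 and 28.6 CPM in Emb, 0, 4.50 and 4.41 CPM in Fet, and 0.141, 10.6 and 5.71 CPM in Neo. Hoxb3 was at 0.962, 0.810 and 0.211 CPM in iPax3 and 0.109, 1.11 and 1.08 CPM in iPax7, against 12.3, 43.1 and 52.2 CPM in Emb, 1.73, 6.84 and 4.13 CPM in Fet, and 0.212, 0 and 5.11 CPM in Neo. All Emb libraries were above all PSC-derived libraries for both genes, as were Fet replicates 2 and 3 for Hoxb3. Fet replicate 1 was above them for Hoxb3 on 1 count only, against 33 and 19 counts in iPax7 replicates 2 and 3. Fet overlapped the PSC-derived range for Hoxb2, and Neo overlapped it for both. Hoxb3 shares 52.9% and Hoxb2 27.3% of exon length with other genes, among them the antisense Hoxb3os, so the source of these reads is uncertain.

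A call in none of the 6 comparisons was found for 10 members: the tested Hoxa6, Hoxa11, Hoxa13, Hoxb2, Hoxb7, Hoxb9, Hoxc12 and Hoxc13, and the untested Hoxb1 and Hoxb13. Hoxa6, Hoxb7 and Hoxc12 were among the members with gaps between the Emb libraries. Hoxa6 was at 0 in all 6 PSC-derived libraries and at 10.7, 0 and 0 CPM in Emb, 0, 2.68 and 4.34 CPM in Fet, and 0.0706, 0 and 3.90 CPM in Neo. It was at least 142-fold lower in iPax3 than in Emb, taking 3 counts over the iPax3 group as the limit, and the call was missed (adjusted p = 0.0648). All Emb counts came from replicate 1, so that without it no bound is left.

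The most 5′ members, which pattern the tail, hands and feet, were low in most libraries. Hoxa13 was at 0.0525, 0 and 0 CPM in iPax3 and 0.400, 0 and 0 CPM in iPax7, against 4.40, 0 and 0 CPM in Emb, 0, 4.59 and 2.78 CPM in Fet, and 0.141, 0 and 0 CPM in Neo. Hoxd13 was at 0, 0.405 and 0 CPM in iPax3 and 1.24, 0.0338 and 0.0569 CPM in iPax7, against 3.16, 28.7 and 19.7 CPM in Emb, 10.4, 10.6 and 8.69 CPM in Fet, and 0, 1.47 and 1.501 CPM in Neo. Hoxb13 was at most 0.582 CPM in a PSC-derived library, at 0 in all Emb and Neo libraries and at 5.18, 1.16 and 0.285 CPM in Fet. Hoxc13 was at 0.0875, 0.381 and 0.105 CPM in iPax3 and 7.64, 0.0338 and 0 CPM in iPax7, against 3.16, 18.9 and 15.6 CPM in Emb, 8.64, 8.27 and 8.76 CPM in Fet, and 0, 0 and 1.802 CPM in Neo. Its iPax7 signal came almost wholly from the library labelled replicate 1.

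The other members took intermediate places. Called lower in 5 comparisons were Hoxb6, Hoxc9, Hoxd4 and Hoxd11, in 4 Hoxc10, Hoxc11, Hoxd8, Hoxd9 and Hoxd10, in 3 Hoxa3, Hoxa4, Hoxb8 and Hoxc5, in 2 Hoxb3, Hoxd3 and Hoxd12, and in 1 Hoxb4, Hoxb5 and Hoxd13. Hoxd10, which patterns the hindlimb and its nerves, had 0 counts in iPax3, against 11.8, 60.9 and 14.3 CPM in Emb. It was at least 1448-fold lower in iPax3, and at least 608-fold lower without Emb replicate 2. Hoxb6 was at 0 in all 3 iPax3 libraries and at 18.4, 16.5 and 19.5 CPM in Emb, a difference of at least 813-fold. These bounds cover counting error only.

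Among posterior members of the lumbar and hindlimb level, Hoxc10 was at 0.122, 0 and 0 CPM in iPax3 and 0.146, 0 and 0.171 CPM in iPax7, against 17.2, 23.1 and 0 CPM in Emb, 5.18, 7.03 and 5.77 CPM in Fet, and 6.08, 13.9 and 3.604 CPM in Neo. Emb replicate 3 was at 0, and every other tissue library was above every PSC-derived library. It was lower in iPax3 than in Neo at -7.33 ± 2.16 (adjusted p = 0.0239) and in iPax7 than in Neo at -6.18 ± 2.08 (0.0487), a call lost without the library labelled iPax7 replicate 1 (-6.52, adjusted p = 0.105). Hoxc9, a thoracic gene, ranged from 0 to 0.0953 CPM in iPax3 and from 0.0728 to 0.341 CPM in iPax7, against 12.3 to 16.7 CPM in Emb, 4.62 to 6.91 CPM in Fet and 0.901 to 11.02 CPM in Neo. PSC-derived and tissue libraries did not overlap for it, and iPax7 against Fet was the comparison that missed the call (adjusted p = 0.063). Without the library labelled iPax7 replicate 1 the iPax7 call against Neo was also lost (adjusted p = 0.0752). Hoxd11, which patterns the forearm and sacral spine, was at 0, 0.0238 and 0.0263 CPM in iPax3 and 0.218, 0 and 0 CPM in iPax7, against 7.48, 17.8 and 21.5 CPM in Emb, 3.45, 4.72 and 2.71 CPM in Fet, and 1.84, 0.163 and 8.71 CPM in Neo. Hoxd9 was at 0.297, 0.143 and 0.0263 CPM in iPax3 and 0.146, 0.101 and 0.853 CPM in iPax7, against 13.1, 46.2 and 2.203 CPM in Emb, 1.73, 5.66 and 1.78 CPM in Fet, and 12.2, 10.8 and 21.3 CPM in Neo. For Hoxd9 the lowest tissue library, Fet replicate 1, stood above the highest PSC-derived library, iPax7 replicate 3 (15 counts), but rested on 1 count. The next lowest, Fet replicate 3, was at 1.78 CPM on 25 counts.

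Among central members, Hoxd4 was at 0.262, 0.119 and 0 CPM in iPax3 and 0.182, 0.675 and 0.682 CPM in iPax7, against 52.2, 16.8 and 21.5 CPM in Emb, 5.18, 5.69 and 6.91 CPM in Fet, and 12.2, 4.89 and 5.41 CPM in Neo. PSC-derived and tissue libraries did not overlap, but 52.3% of the exon length of Hoxd4 is shared with other genes. Its log2 fold change against Neo was -5.80 ± 1.34 in iPax3 (adjusted p = 0.00609) and -3.86 ± 1.22 in iPax7 (0.0386), a call lost without the library labelled iPax7 replicate 1 (-3.44, adjusted p = 0.112). Hoxb8 was at 0.122, 0.834 and 0 CPM in iPax3 and 0.182, 0.135 and 0.967 CPM in iPax7, in the range of Neo replicate 2, and was called in iPax3 against Emb (-7.98 ± 1.59, adjusted p = 0.003) and Fet (-5.13 ± 1.41, 0.032) and not against Neo (-3.0 ± 1.3, 0.106). The paralogs 3 of clusters A and D had gaps within Emb. Hoxa3 was at most 0.119 CPM in iPax3 and 0.473 CPM in iPax7, against 21.99, 0.0571 and 55.2 CPM in Emb. Hoxd3 was at most 0.07 CPM in iPax3 and 0.135 CPM in iPax7, against 37.8, 18.2 and 0 CPM in Emb. Hoxd12 was at 0 in all 6 PSC-derived and all 3 Neo libraries and at 1.16, 0 and 13 CPM in Emb.

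Between the PSC-derived groups, 0 of 36 members were called higher in iPax7 than in iPax3 (0.0569% of all genes) and 0 lower (0.0171%). At an unadjusted p under 0.05 there were 8 members, Hoxa7, Hoxb6, Hoxc4, Hoxc5, Hoxc8, Hoxc11, Hoxd1 and Hoxd8, beside 6.16% of all genes, and 2 without the library labelled iPax7 replicate 1 (Hoxc11 and Hoxd8). DESeq2 called 1, Hoxc4, with a log2 fold change of 3.14 (adjusted p = 0.0301, range 0.0301 to 1 over the alternatives). For the other 6 the iPax7 level was highest in the library labelled replicate 1. The median log2 fold change of the members was 1.71, beside 0.09 over all genes, and without that library 0, beside -0.05 over all genes.

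Across the tissue stages, Hox levels were highest in Emb. Between Fet and Emb, 0 members were called lower (0.763% of all genes) and 0 higher (2.89%). Of the 36, 5 had an unadjusted p under 0.05, a smaller share than the 22.0% of all genes. DESeq2 called 4, Hoxa9, Hoxb9, Hoxd1 and Hoxd4, with no share of all genes at hand for it. The median log2 fold change was -1.57 for the members and 0.18 for all genes. Hoxa9 was at -2.16 ± 0.59 (adjusted p = 0.0515), and without Emb replicate 1 it was called (0.0421, range 0.000228 to 0.153 over the alternatives). In 16 of the 36 members the 3 Fet and the 3 Emb libraries did not overlap, which held for 24.0% of all tested genes.

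Between Neo and Fet, 0 members were called lower (1.0% of all genes) and 0 higher (1.37%). Hoxc12 and Hoxd12 had an unadjusted p under 0.05, a smaller share than the 19.5% of all genes. DESeq2 called 1, Hoxc12, which was at 0 in all Neo libraries and in Fet replicate 1. The median log2 fold change of the members was -0.70, and that of all genes -0.14. In 9 members the Neo and Fet libraries did not overlap, which held for 28.0% of all tested genes.

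Between Neo and Emb, 4 members were called lower (8.43% of all genes) and 0 higher (11.7%). The 4 of 36 were near the share of all genes. At an unadjusted p under 0.05 there were 12 members, beside 35.6% of all genes. Hoxb8, a gene of the thoracic and lumbar cord, was at 1.06, 0.163 and 6.91 CPM in Neo, against 62.8, 90.8 and 92.2 CPM in Emb. The stages did not overlap, with Fet between them at 10.2 to 13.2 CPM, and the log2 fold change of Neo against Emb was -4.99 ± 1.4 (adjusted p = 0.0217). The other 3 were Hoxb9 (-3.44 ± 1.09, 0.0366), Hoxd1 (-3.83 ± 1.22, 0.0378) and Hoxc8 (-3.02 ± 1.0, 0.0440). Without Emb replicate 2 the count was 2, without Neo replicate 1 it was 1, and without Neo replicate 2 it was 0. DESeq2 called 12, of which 10 were lower and 2, Hoxc11 and Hoxd8, higher in Neo. The shares of all genes above are those of edgeR and do not apply to it. Hoxc11, a hindlimb gene, was at 7.63, 4.89 and 4.50 CPM in Neo, against 1.003, 1.71 and 1.76 CPM in Emb.

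Levels can be compared between genes only per length, and on CPM per kilobase of exon the order of the members changed between groups. In iPax3 the first was Hoxb9 at 8.58 ± 11.4 CPM per kb, followed by Hoxb4 at 0.776 ± 0.198, Hoxd8 at 0.527 ± 0.399 and Hoxb3 at 0.155 ± 0.0934 CPM per kb. In iPax7 the order was Hoxb9 at 3.43 ± 3.13, Hoxd8 at 1.92 ± 1.70, Hoxc13 at 1.04 ± 1.79 and Hoxb4 at 1.01 ± 0.755 CPM per kb, neighbours that did not differ beyond their spread. In Emb it began with Hoxc8 at 55.1 ± 14.9, Hoxc4 at 45.5 ± 7.45, Hoxd1 at 40.5 ± 15.5 and Hoxb9 at 33.5 ± 13.3 CPM per kb, each within the spread of the next. In Fet it began with Hoxc4 at 18.6 ± 4.12, Hoxa5 at 13.3 ± 5.77 and Hoxc8 at 12.8 ± 0.948 CPM per kb. In Neo Hoxd8 stood first at 26.4 ± 4.52 CPM per kb, above Hoxa10 at 14.46 ± 5.96 and Hoxc4 at 12.1 ± 7.3 CPM per kb (SD, n = 3 each).

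Partners and regulators of Hox proteins were examined from lists chosen with earlier results known. Counts of these and the later lists stand beside the shares of all genes called. Against Emb, Fet and Neo, 7.64, 5.68 and 11.3% of all genes were lower in iPax3 and 5.54, 2.75 and 8.37% in iPax7. The shares higher were 9.34, 2.85 and 11.3% in iPax3 and 8.51, 0.950 and 9.83% in iPax7. Of 9 TALE cofactors, which bind DNA together with Hox proteins, 4 were lower in iPax3 than in Emb, 1 than in Fet and 1 than in Neo, and 4, 0 and 1 were lower in iPax7. The 1 of 9 against Neo was near the share of all genes in both groups. Meis2 averaged 20.7 ± 4.46 CPM in iPax3 and 20.9 ± 13.5 CPM in iPax7, against 313 ± 29.7 CPM in Emb, and the log2 fold change of iPax3 was -3.92 ± 0.58 (adjusted p = 0.000293). Pbx2 was lower in iPax3 than in Emb at -2.88 ± 0.34 (adjusted p = 4.61e-05) and than in Neo at -1.73 ± 0.33 (0.00154). Summed, the cofactors ran from 214 to 302 CPM in iPax3 and 153 to 467 CPM in iPax7, against 1243 to 1841 CPM in Emb, 478 to 548 CPM in Fet and 347 to 533 CPM in Neo. Cofactor transcripts were thus present in PSC-derived cells at summed levels that overlapped those of Neo in iPax7.

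Of 14 upstream regulators counted, 8 were tested, and 2, 3 and 3 were lower in iPax3 than in Emb, Fet and Neo, with 3, 2 and 3 in iPax7. Aldh1a2, which makes retinoic acid, averaged 0.673 ± 1.15 CPM in iPax3 and 1.496 ± 2.297 CPM in iPax7, against 99.3 ± 55.7 CPM in Emb (iPax3 against Emb -7.20 ± 1.78, adjusted p = 0.0133). Of 6 limb genes, 4, 5 and 5 were lower in iPax3 than in Emb, Fet and Neo and 3, 3 and 4 in iPax7, and Tbx5, Shox2 and Lbx1 were lower in all 6 comparisons. Lbx1, a marker of muscle precursors that migrate into the limb, averaged 0.103 ± 0.0347 CPM in iPax3 and 0.0606 ± 0.105 CPM in iPax7, against 53.9 ± 40.6 CPM in Emb.

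Noncoding RNAs and neighbours of the clusters were measured too. Of 6 tested noncoding RNAs of the clusters, 6, 3 and 3 were lower in iPax3 than in Emb, Fet and Neo, and 3, 0 and 2 in iPax7. Among them, Haglr, Hoxaas2, Hoxaas3, Hoxa11os and Hoxb3os overlap exons of members on the opposite strand. Since the strand setting of the counting is not given, their reads cannot be told apart from those of the members with certainty. Hotair, transcribed from cluster C, averaged 0.0233 ± 0.0404 CPM in iPax3 and was at 0 in iPax7, against 14.2 ± 11.2 CPM in Emb (iPax3 against Emb -8.86 ± 2.2, adjusted p = 0.0169). The 11 tested genes that flank the clusters did not follow the members: 1, 0 and 2 were lower in iPax3 than in Emb, Fet and Neo, 0 in each comparison of iPax7, and Cbx1, Cbx5 and Mtx2 were higher than in Neo in both PSC-derived groups. Their median log2 fold changes ran from -0.23 to 0.46 over the 6 comparisons. Cbx1, which codes for a heterochromatin protein and lies beside cluster B, averaged 181 ± 22.6 CPM in iPax3 and 237 ± 132 CPM in iPax7, against 347 ± 31.3 CPM in Emb, 192 ± 14.4 CPM in Fet and 96.5 ± 1.44 CPM in Neo.

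Markers of other cell types moved with the same contrasts. Fibroblast and mesenchymal genes summed to 149 to 544 CPM in iPax3 and 912 to 1178 CPM in iPax7, against 2408 to 2467 CPM in Emb, 23194 to 27146 CPM in Fet and 25486 to 73943 CPM in Neo, and 7, 7 and 6 of 8 were lower in iPax3 than in Emb, Fet and Neo (4, 7 and 6 in iPax7). Endothelial genes summed to 1.001 to 6.12 CPM in iPax3 and 1.89 to 119 CPM in iPax7, against 16.5 to 40.7 CPM in Emb, 211 to 512 CPM in Fet and 2093 to 2730 CPM in Neo; 4, 8 and 8 of 8 were lower in iPax3 and 3, 5 and 8 in iPax7. Neural and Schwann genes summed to 55.4 to 176 CPM in iPax3 and 114 to 458 CPM in iPax7, against 678 to 1145 CPM in Emb, 195 to 294 CPM in Fet and 84.1 to 192 CPM in Neo, with 7, 5 and 3 of 10 lower in iPax3 and 4, 2 and 2 in iPax7, and 2 higher than in Neo in iPax3 (Tubb3 and Nefl) and in iPax7 (Tubb3 and Dcx). Their part in the Hox differences was not tested.

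Tendon and cartilage genes summed to 47.7 to 131 CPM in iPax3 and 35.5 to 42.1 CPM in iPax7, against 1001 to 1527 CPM in Emb, 2048 to 4319 CPM in Fet and 3800 to 4211 CPM in Neo, with 5, 5 and 5 of 8 lower in iPax3 and 5, 6 and 6 in iPax7, and Matn1 higher than in Emb in both. Immune genes summed to at most 14.52 CPM in a PSC-derived library and to 0.386 CPM in an Emb library, against 34.5 to 53.9 CPM in Fet and 160 to 634 CPM in Neo, and 0, 5 and 7 of 8 were lower in iPax3 and 0, 2 and 6 in iPax7, where Cd68 and Lyz2 were higher than in Emb. Erythroid genes summed to at most 0.595 CPM in PSC-derived libraries and 4.01 CPM in Emb, against 13.4 to 27.6 CPM in Fet and 58.4 to 384 CPM in Neo, and 0, 2 and 5 of 6 were lower in iPax3 and 0, 2 and 6 in iPax7. Epithelial and mesothelial genes went the other way, with 4, 3 and 4 of 6 higher in iPax3 and 3, 2 and 4 in iPax7 (600 to 1016 CPM in iPax3 and 264 to 965 CPM in iPax7, against 26.9 to 109 CPM in Emb). Of 4 tested pluripotency genes, 3 were higher in iPax7 than in Emb and Neo, with the sum of the labelled replicate 1 given above. Myogenic genes summed to 750 to 1119 CPM in iPax3 and 35.9 to 1515 CPM in iPax7, against 319 to 1028 CPM in Emb, 488 to 877 CPM in Fet and 134 to 236 CPM in Neo. Between Neo and Emb, 8 of 8 endothelial and 7 of 8 immune genes were higher in Neo (11.7% of all genes). They stood beside the 4 lower Hox genes, and the part of these markers was not tested. Among the listed markers, Foxd3, C1qa, Tyrobp, S100a8, S100a9 and Upk3b were at 0 in all iPax3 libraries and Emcn, Ptprc, C1qb, Tyrobp, S100a8, S100a9 and Hba-a1 in all iPax7 libraries. Emb libraries were all at 0 for C1qb, Krt19, Alas2, Pou5f1, Zfp42 and Dppa5a among others, and Neo libraries for Krt19, Upk3b, Pou5f1, Zfp42 and Dppa5a.

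Single cells gave a second view of iPax3, against adult hindlimb satellite cells. Cells (2931 iPax3 and 579 Sat) had medians of 11716 and 10765 UMIs, and 1 barcode was shared between the samples. In the authors' deposited table Pax7 averaged 1.60 and 1.47 UMIs per cell in the 2 Sat clusters, beside 9.16 and 11.3 UMIs of the fibroblast gene Dcn. With 1 sample each there is no test, and the exact 95% intervals cover counting error only. Summed over cells, the 38 members had 555 UMIs in iPax3 cells (13.3 CPM of all UMIs) and 1105 in Sat cells (140 CPM), a ratio of 0.0954 (0.086 to 0.106), or 0.0683 (0.0607 to 0.0766) without Hoxb9.

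The clusters again differed. Cluster A held 2 UMIs in iPax3 cells (0.0481 CPM) and 304 in Sat cells (38.5 CPM), a ratio of 0.00125 (0.000151 to 0.00455). Cluster C held 0 UMIs in iPax3 cells and 673 in Sat cells (85.1 CPM), at least 1181-fold lower at the limit that 3 counts allow. Cluster B was at 8.46 CPM in iPax3 and 8.09 in Sat cells (ratio 1.05, 0.799 to 1.39), and cluster D at 4.83 and 8.09 CPM (0.597, 0.448 to 0.803). Anterior members had 111 UMIs in iPax3 cells, 85 of them from Hoxb2, and 5 in Sat cells, a ratio of 4.22 (1.75 to 13.2), while central and posterior members had ratios of 0.136 (0.115 to 0.159) and 0.0472 (0.0399 to 0.0556). In bulk, the anterior sum went the other way against Neo, at 1.21 CPM in iPax3 and 21.3 CPM in Neo. Neo and Sat differ in stage and muscle, and bulk counts and UMIs in method, which cannot be told apart.

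Hoxb9 and Hoxd8 had the most UMIs in iPax3 cells. Hoxb9 had 159 UMIs in 124 iPax3 cells (3.82 CPM) and 3 in Sat cells, a ratio of 10.1 (3.38 to 49.3). Hoxd8 had 145 UMIs in iPax3 cells (3.48 CPM) and 1 in Sat cells, a ratio of 27.5 (4.87 to 1095). Hoxb2 and Hoxb4 had 85 and 76 UMIs in iPax3 cells (2.04 and 1.83 CPM) and 0 in Sat cells, at least 5.38-fold and 4.81-fold higher. Hoxd4 (33 UMIs), Hoxb3 (24), Hoxd9 (22) and Hoxb5 (6) followed, and Hoxa3, Hoxa7, Hoxb6, Hoxb13 and Hoxd3 had 1 UMI each. In barcodes under 100 UMIs, which hold free RNA, Hoxb9 was at 2.35 CPM (5 UMIs) and Hoxd8 at 4.70 CPM (10 UMIs) in the iPax3 sample, and Hoxb2 at 2.35 CPM (5 UMIs), so Hoxd8 and Hoxb2 were not higher in cells than in free RNA. Hoxb4 had 0 UMIs there. Against Neo, the bulk means of Hoxd8, Hoxb2 and Hoxb4 went the other way. They were 1.45, 0.376 and 1.99 CPM in iPax3 and 72.5, 5.48 and 6.08 CPM in Neo. The bulk mean of Hoxb9 was higher in iPax3 (22.1 CPM) than in Neo (7.95 CPM), which hung on iPax3 replicate 2.

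In Sat cells clusters C and A held most Hox UMIs. Hoxc10, a gene of the hindlimb level, had 0 UMIs in iPax3 cells and 486 in 286 Sat cells (61.5 CPM), at least 853-fold lower in iPax3. Hoxa7 had 1 UMI in iPax3 cells and 186 in Sat cells (23.5 CPM). Hoxc9, Hoxa9, Hoxc11 and Hoxa10 had 0 UMIs in iPax3 cells and 60, 54, 52 and 38 in Sat cells, and Hoxb7 had 0 in iPax3 cells and 40 in Sat cells. Free RNA of the Sat sample held Hoxc10 at 65.2 and Hoxa7 at 24.5 CPM, near the level in cells. In all, 13 members had a UMI in iPax3 cells and 22 in Sat cells, and 16 had none in Sat cells, where 3 UMIs correspond to 0.379 CPM.

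**Figure D5:**
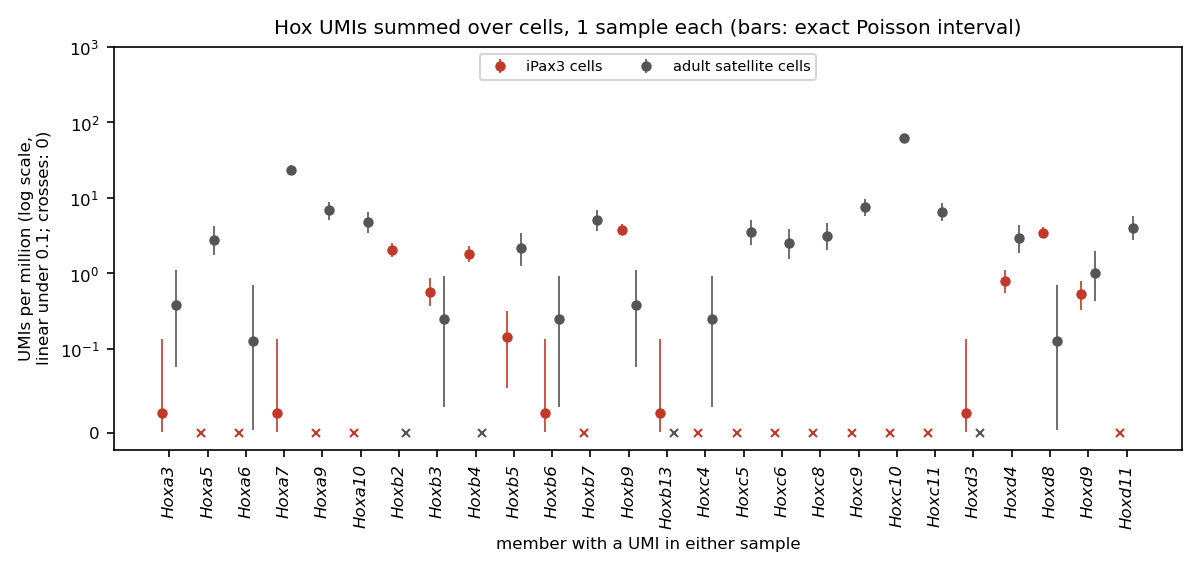
Summed UMIs (CPM) of the 26 Hox genes with a UMI in either sample (log scale, linear under 0.1), for iPax3 cells and adult satellite cells, 1 sample each. Bars are exact Poisson intervals and crosses mark 0. Cluster C genes are at 0 in iPax3 cells, and Hoxb9, Hoxb2, Hoxb4 and Hoxd8 are higher there than in satellite cells.

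Within iPax3 cells, the authors' deposited table of cluster means gave Hoxd4, Hoxd8 and Hoxd9 their highest means in 1 of 7 clusters. In their cluster 1, which had 5.68 UMIs per cell of Myog, the gene of muscle differentiation, against 0.405 to 0.901 in the other 6 clusters, Hoxd8 averaged 0.188 UMIs per cell, against 0.0034 to 0.0174 elsewhere in the authors' deposited table. Hoxd4 averaged 0.0463 there, against at most 0.0054 in the other clusters of the authors' deposited table, and Hoxd9 0.0351 against at most 0.0034. Hoxb9 was spread more evenly, at 0.0735 in cluster 1 and 0.0319 to 0.0659 in the others, per the authors' deposited table. Hoxb4 was lowest in cluster 1, at 0.0080 against 0.0171 to 0.0392 elsewhere in the authors' deposited table. These are means over cells of 1 sample and were not tested. In Sat cells the authors' deposited table gave Hoxc10 0.683 and 0.434 and Hoxa7 0.242 and 0.454 UMIs per cell in clusters 1 and 2, and the endothelial gene Pecam1 was at 0.342 and 1.32.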

How the data were processed

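Bulk RNA was sequenced from 15 libraries in 5 groups of 3, and single cells from 1 iPax3 and 1 Sat sample. The authors deposited whole-number read counts per gene for each bulk library and UMI counts per gene and barcode for single cells. Per the submitters' processing notes, the tools were CASAVA 1.8, HISAT2 2.0.2, Subread featureCounts 1.4.6 and Cell Ranger 2.2.0 with the genome mm10; annotation, strand setting and treatment of multi-mapped reads are not given in the sources used here. The authors also deposited cluster means of UMIs per cell, a signal used as given.

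The Hox family and the gene lists were chosen as subjects with earlier results of these data known, although membership follows from gene names alone. Counts were tested with edgeR 4.0.16 in R 4.3.3 (TMM scaling, filterByExpr, robust quasi-likelihood test, 1 mean per group over all 15 libraries, Benjamini-Hochberg adjustment over 17571 genes). DESeq2 1.42.0 was an alternative, and the shares of all genes called are given for edgeR only. CPM used TMM-scaled totals, CPM per kb the exon union of GENCODE M21, and a bound 3 counts over the group at 0. The step was tested on simulated data. Genes were named by rule: the 2 highest members of each cluster, the 3 highest in iPax3 and in iPax7, up to 4 called per comparison by adjusted p, and the first and last measured paralog of each cluster; the other members are given because every member is accounted for. Single-cell barcodes passed at 500 UMIs or more, at 10% or more of the 99th percentile of the 3000 largest, and under 10% mitochondrial UMIs; doublets were not removed, and leaving out cells above 2 times the median UMIs was an alternative. Same-numbered bulk libraries did not deviate together (residual correlations -0.331 to 0.0767), so numbers were not treated as pairs. Depth limits precision: 1 count was 1.73 CPM in Fet replicate 1, and intervals and bounds cover counting error only. Recovered in vivo cells of the same study were not analysed here.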

Additional observations from a re-analysis of the deposited data

Results flagged for a closer look

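A second deposited single-cell matrix, labelled as another iPax3 sample, was not used in the comparisons because its barcodes were those of the samples above: barcodes with 1 suffix shared 573 of the 579 Sat cells, and those with the other 2769 of the 2931 iPax3 cells. Over its barcodes of iPax3 cells it held 2403 Hox UMIs (16.6 CPM) from 21 members. Hoxc13, at 0 in the iPax3 sample, had 7 UMIs there, and Hoxd3, with 1 UMI in the iPax3 sample, had 8. They are listed because they are signals in data outside the comparisons, above the 3 UMIs that a count of 0 allows. That matrix was deeper, with 144863508 UMIs over these barcodes against 41625326 in the iPax3 sample, and at 0.0483 and 0.0552 CPM both genes lay below the 0.0721 CPM that 3 UMIs stand for in the iPax3 sample. They are not independent of the iPax3 sample.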

How the results depend on the processing

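Over the alternatives, 63 of 119 called member and comparison pairs lost their call under at least 1 and 0 changed sign; Hoxa9, Hoxa10 and Hoxc4 kept theirs in all 6 comparisons. Thinned to 516504 counts a library, lower members numbered 12, 11 and 9 in iPax3 against Emb, Fet and Neo, and 12 and 8 in iPax7 against Emb and Neo; 2 were called between Fet and Emb, 1 between Neo and Fet, and 7 between Neo and Emb, where fewer counts are tested. With the 2 groups fitted alone, counts were 28 (iPax3 against Fet), 7, 14 and 6 (iPax7 against Emb, Fet and Neo), 5 (Fet against Emb), 2, both higher (Neo against Fet: Hoxa9 and Hoxd8), and 7 (Neo against Emb). DESeq2 called 26 (iPax7 against Fet), 1 (iPax7 against iPax3), 4 (Fet against Emb), 1 (Neo against Fet) and 12 (Neo against Emb). The share of all genes that DESeq2 called is not given. Without the low-count filter 1 was called between Fet and Emb (Hoxa9). With a replicate block, iPax7 against Neo gave 11, and no other count moved by over 1.5 times; the pairing has no support in the labels. Leaving out 1 library at a time gave 18 to 27, 11 to 15 and 14 to 20 for iPax3 against Emb, Fet and Neo, 12 to 25, 6 to 10 and 8 to 14 for iPax7, 0 between iPax7 and iPax3, 0 to 1 between Fet and Emb, 0 between Neo and Fet, and 0 to 4 between Neo and Emb. Leaving out the library labelled iPax7 replicate 1 and Fet replicate 1 together, chosen after seeing the data, gave 13 and 11 for iPax7 against Emb and Neo, 17 for iPax3 against Fet and 1 for Fet against Emb. Detected members averaged 1.67 in iPax3 and 2.67 in iPax7 at 2 CPM, and 9.67 in iPax7 at 0.5 CPM. The posterior share in Neo was 33.8% per kilobase; leaving out 1 library it was 52.9 to 74.9% in iPax3. The summed single-cell ratio was 0.0939 to 0.0998 over its alternatives. Other scalings moved the median of all genes by up to -0.254, far less than the members' medians against tissue. Where counts moved, the cause was not tested.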
